A study of Mus musculus with 4 samples.

Results

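Mouse embryonic stem cells (mESCs) hold a rare and transient subpopulation that transcribes genes of the 2-cell embryo. The 10 genes described here mark that state: Zscan4a, Zscan4c, Zscan4d, Zscan4e, Zscan4f, Tcstv3, Usp17lc, Eif1ad8, Eif4a3l1 and Eif4a3l2, taken by name as 10 of the 56748 genes of the deposited count table. They were selected on their level in Npac knockout (KO) against wildtype (WT) cells in these same libraries, so that contrast is given below as a description, with no test. The libraries came from E14, an established mESC line grown without feeder cells on gelatin in medium with serum and leukemia inhibitory factor. WT1 and WT2 are E14 cells labelled WT, and KO1 and KO2 are E14 cells in which Npac had been disrupted with CRISPR/Cas9. Npac, listed as Glyr1, encodes a chromatin protein that reads a histone mark of transcribed gene bodies, and the study asked what its loss does to mESC identity and splicing. It derived 2 KO clones, and the labels do not say from which clone each KO library was made, nor whether libraries of a group came from separate cultures, so any p-value measures only the spread between these libraries.

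Genes of the 2-cell state are switched on in the mouse embryo when its own genome is first transcribed, and in cultured mESCs they come on together in a few cells at a time, largely under the homeobox factor Dux. Zscan4 proteins carry a SCAN domain and zinc fingers and are known for telomere lengthening in mESCs. Many genes of the state lie in clusters of young, near-identical copies, which makes it hard to assign a sequencing read to 1 copy. In a bulk library, fewer cells in the state and less RNA per cell in the state cannot be told apart.

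The deposited table places the 5 Zscan4 genes on chromosome 7: Zscan4a at 10528169-10532984 (minus strand), Zscan4c at 10739672-10744474 (plus), Zscan4d at 10895301-10900086 (minus), Zscan4e at 11040305-11044609 (minus) and Zscan4f at 11131842-11136245 (plus). Usp17lc lies elsewhere on chromosome 7, at 103064279-103069087 (plus). Tcstv3 is on chromosome 13 at 120778414-120779714, Eif1ad8 on chromosome 12 at 87561086-87565036, and Eif4a3l1 and Eif4a3l2 on chromosome 6 at 136304537-136306981 and 116528102-116529463, all 4 on the plus strand. These positions are those of the authors' table, which names no build. The submitters' processing notes name mm10, yet 0 of the 10 genes start where GENCODE M21 on GRCm38 places them. Of all 52073 genes shared with GENCODE M21, only 1485 have the same start, so the mismatch is not limited to these loci. Positions from the table and from GRCm38 are therefore kept apart here. Zscan4a is annotated in the table as an unprocessed pseudogene and the other 9 as protein coding.

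How alike the copies are is shown by 60 bases of the Zscan4c coding sequence, bases 597 to 656 of 1521 counted from the start codon in GENCODE M21, the stretch of that length with the most differing positions. Capitals mark bases that differ from Zscan4c.
Zscan4c: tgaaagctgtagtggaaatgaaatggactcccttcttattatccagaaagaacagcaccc
Zscan4a: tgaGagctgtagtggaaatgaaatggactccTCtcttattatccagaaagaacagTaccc
Zscan4d: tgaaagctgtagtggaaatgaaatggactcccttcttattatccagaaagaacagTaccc
Zscan4e: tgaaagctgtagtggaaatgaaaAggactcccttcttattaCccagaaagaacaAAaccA
Zscan4f: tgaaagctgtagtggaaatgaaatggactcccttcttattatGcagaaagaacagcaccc
Even here Zscan4d and Zscan4f each differed from Zscan4c at 1 base, and Zscan4e, the most different, at 5 bases. Over the whole coding sequence Zscan4f differed from Zscan4c at 6 of 1521 bases (99.6% identity). Zscan4d differed at 35 bases (97.7%), the Zscan4a transcript at 28 (98.2%), and Zscan4e at 32, with a further 3 bases missing (97.7%).

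Eif4a3l1 and Eif4a3l2 resemble Eif4a3, the RNA helicase of the exon junction complex, which is expressed in most cells. The stretch with the most differences, bases 6 to 65 of the 1236 coding bases, is printed with capitals where a copy differs from Eif4a3.
Eif4a3: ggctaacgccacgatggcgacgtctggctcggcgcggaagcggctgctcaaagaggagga
Eif4a3l1: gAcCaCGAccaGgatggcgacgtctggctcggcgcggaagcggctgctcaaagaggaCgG
Eif4a3l2: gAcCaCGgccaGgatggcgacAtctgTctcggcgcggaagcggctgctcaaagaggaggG
Each copy differed from Eif4a3 at 8 of these bases. Over the whole coding sequence Eif4a3l1 differed from Eif4a3 at 47 bases (96.2% identity) and Eif4a3l2 at 40 (96.8%), while the copies differed from each other at 18 (98.5%). Usp17lc was 98.4% identical to Usp17ld, and Tcstv3 93.9% identical to Tcstv1.

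The reads were 150 bases long, so each transcript was divided into all its windows of 150 bases and each window was looked for in the transcripts of every other gene. For Zscan4f, 86.2% of windows also occurred in another gene, mostly in Zscan4-ps2 (69.0%). The share was 77.4% for Zscan4e, 61% for Zscan4c, 25.1% for Zscan4a and 13.0% for Zscan4d. It was 29.4% for Usp17lc, 16.5% for Eif4a3l1, 15.3% for Eif4a3l2 and 2.96% for Eif1ad8. Of the 630 windows of Tcstv3, 0 occurred in another gene. Each window stands for a single read, and the pairing of the reads was not taken into account. How the authors' counting treated reads with several matches is not given in the sources used here, so the split among Zscan4c, Zscan4e and Zscan4f is uncertain and the sum over the copies is given beside it.

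**Figure D1:**
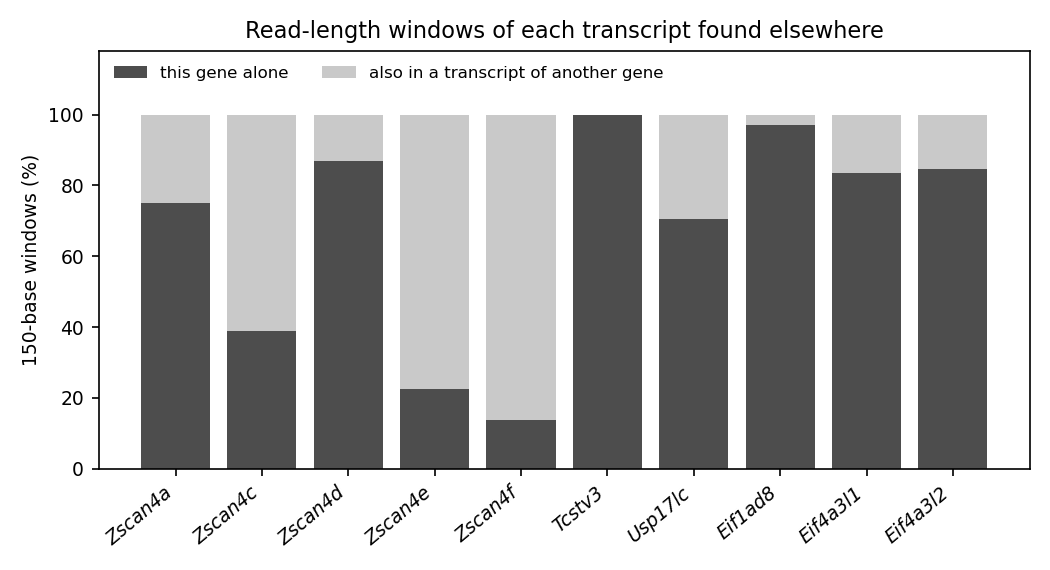
Bars show the percentage of all 150-base windows of each gene's longest GENCODE M21 transcript that occur in that gene alone (dark) or also in a transcript of another gene (light). Zscan4f has the largest shared part, 86.2%, and Tcstv3 has none.

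RefSeq promoter windows on GRCm38.p6 were at hand for 5 of the 10 genes, Zscan4c, Zscan4d, Zscan4f, Usp17lc and Eif4a3l1. The letters TATAAA, the core of a TATA box, were searched on both strands and, where found before the annotated start, are printed in capitals with the 40 bases before and the 14 bases after them. Zscan4c lies at chr7:11005651-11005710 (plus), Zscan4d at chr7:11166194-11166253 (minus), Zscan4f at chr7:11397844-11397903 (plus) and Usp17lc at chr7:103416568-103416627 (plus).
Zscan4c: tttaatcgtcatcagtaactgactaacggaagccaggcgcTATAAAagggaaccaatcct
Zscan4d: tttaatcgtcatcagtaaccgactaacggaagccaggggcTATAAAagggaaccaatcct
Zscan4f: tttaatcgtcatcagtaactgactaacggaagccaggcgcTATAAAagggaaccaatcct
Usp17lc: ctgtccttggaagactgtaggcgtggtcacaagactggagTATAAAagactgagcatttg
The Zscan4f stretch was identical to that of Zscan4c, and that of Zscan4d differed at 2 of 60 bases. The motif began 54, 65, 31 and 88 bases before the annotated start of Zscan4c, Zscan4d, Zscan4f and Usp17lc. It was found before the start in 4 of the 5 genes with a window and not in Eif4a3l1. Over all 32851 promoter windows of 300 bases, 13.6% held TATAAA on either strand, and 7.59% held it on the gene's strand before the start.

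Libraries held between 15850805 and 16965120 counted reads. Glyr1, the targeted gene, had 3961 and 3115 reads in WT1 and WT2 against 744 and 888 in KO1 and KO2, so the KO libraries kept 22.7% of the WT mean, in the direction their labels give. The mESC genes Pou5f1, Nanog and Sox2 were at 528 CPM or more (TMM-normalized read counts scaled to a common library size) in the means of both groups. Of 10 mESC markers, 3 were called lower in KO (Zfp42, Klf4 and Tfcp2l1). A gene is called where edgeR's quasi-likelihood test on the whole table gave it an adjusted p under 0.05 with a change above 1.5-fold, and 10.7% of the 18157 genes tested were called lower in KO and 11% higher. The summed count of the mESC markers was 125524 and 113102 in WT and 81760 and 87369 in KO, and whether that difference has a part in the results below was not tested. Of 8 fibroblast markers, which would reveal feeder cells, Col3a1 and Dcn had 0 reads in every library. Of the 4 tested, Col1a1, Col1a2 and Pdgfra lay above WT in both KO libraries, an order seen in 33.2% of all genes tested, and Col1a1 was called higher. The median log2 fold change was 1.03, while the summed counts, of which Thy1 makes up the most, ran from 583 to 1108 in WT and from 788 to 981 in KO. Of 7 primitive endoderm markers tested, Gata4, Gata6, Pdgfra and Cubn lay above WT in both KO libraries and Dab2 and Sox7 below, with a median log2 fold change of 0.48. Sox7 was called lower, with 273 and 162 reads in WT against 4 and 16 in KO, and the summed counts were at least 488 in WT, against 327 and 493 in KO. Whether the cells these markers stand for have a part in the results below was not tested.

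The 5 Zscan4 genes together had 459 and 855 reads in WT1 and WT2, against 32 and 248 in KO1 and KO2. On the CPM scale that was 30.1 and 48.9 in WT against 2.06 and 14.3 in KO, a mean of 39.5 ± 13.4 (SD, n = 2) against 8.19 ± 8.68. Both KO libraries lay below both WT libraries, and they were far apart from each other, since KO1 held 5.21% of the WT mean and KO2 36.3%. The log2 ratio of the means, KO over WT, was -2.27, and it was -1.46 without KO1 and -4.26 without KO2. Summing all 10 rows named Zscan4, which adds Zscan4b and Zscan4-ps1 to Zscan4-ps4, gave counts of 742, 1343, 44 and 379 and a log2 ratio of -2.34.

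Zscan4a had 136 reads in WT1 and 151 in WT2, against 6 in KO1 and 56 in KO2. Zscan4c had 93, 201, 13 and 60 reads in the same order. In both genes KO2 kept 36.9% and 39.4% of the WT mean, and KO1 kept 4.4% and 9.51%. Zscan4d had 105, 257, 5 and 56 reads, and Zscan4f had 61, 171, 3 and 41. For these 2 genes KO2 stood at 30.0% and 34.4% of the WT mean and KO1 at 2.98% and 2.80%. Zscan4e had 64, 75, 5 and 35 reads, which put KO2 at 47.7% of the WT mean and KO1 at 7.58%. No Zscan4 gene had a KO library inside the WT range, and in each of them KO1 was the lowest library. The edgeR log2 fold changes were -2.26 (SE 0.75) for Zscan4a, -2.02 (SE 0.65) for Zscan4c, -2.58 (SE 0.83) for Zscan4d, -1.83 (SE 0.72) for Zscan4e and -2.40 (SE 0.89) for Zscan4f. Without KO2 they were between -5.09 and -3.37, without KO1 between -1.75 and -1.07, and without WT2 between -2.27 and -1.49. The intervals these errors imply overlap broadly, so the data do not order the copies by their fold change.

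**Figure D2:**
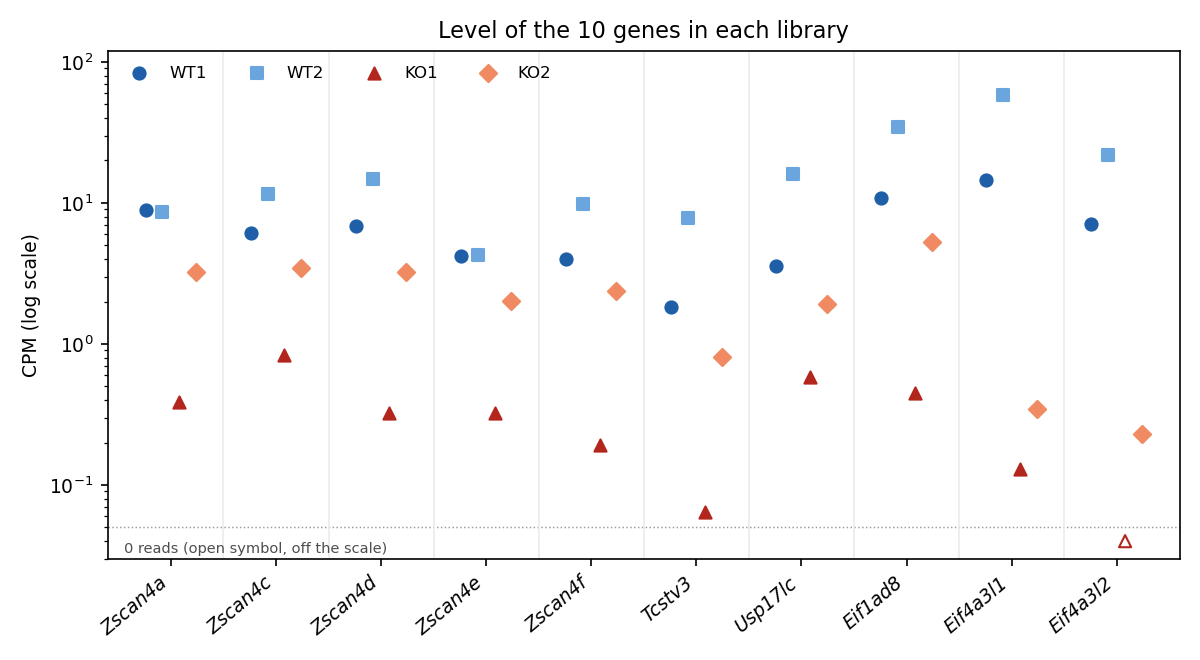
Each symbol is the TMM-normalized CPM of a gene (x axis) in 1 library, on a log scale. Open symbols below the dotted line mark libraries with 0 reads. For every gene both KO symbols lie below both WT symbols, and KO1 lies below KO2.

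The division of the Zscan4 reads among the 5 genes differed between the WT libraries. Zscan4a took 29.6% of them in WT1 (exact binomial 95% interval 25.5 to 34%) and 17.7% in WT2 (15.2 to 20.4%). Zscan4f went the other way, from 13.3% (10.3 to 16.7%) in WT1 to 20% (17.4 to 22.8%) in WT2, as did Zscan4d, from 22.9% (19.1 to 27.0%) to 30.1% (27.0 to 33.3%). The intervals of Zscan4a and Zscan4f did not overlap between the WT libraries, and they cover counting error only. In KO2 the shares were 22.6% for Zscan4a, 24.2% for Zscan4c, 22.6% for Zscan4d, 14.1% for Zscan4e and 16.5% for Zscan4f. For each gene the KO2 interval overlapped that of at least 1 WT library. With 32 reads, KO1 gave intervals too wide to place its shares, for example 7.21 to 36.4% for Zscan4a and 23.7 to 59.4% for Zscan4c.

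**Figure D3:**
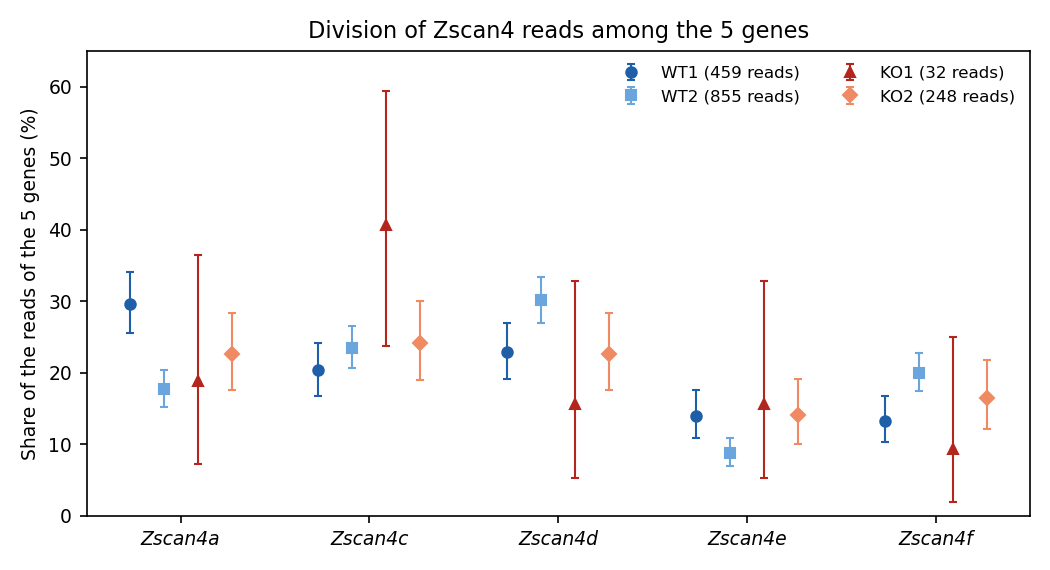
Points show the share (y axis, percent) of the reads of the 5 Zscan4 genes that each gene took in each library, with exact binomial 95% intervals. The WT1 and WT2 intervals of Zscan4a and Zscan4f do not overlap, and those of KO1, from 32 reads, span most of the range.

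Tcstv3, a member of a small family named for its variable expression at the 2-cell stage, had 28 reads in WT1 and 136 in WT2, against 1 in KO1 and 14 in KO2. Usp17lc, a deubiquitinating enzyme of the Usp17-like family, had 55, 280, 9 and 33. In both genes WT2 was more than 4 times as high as WT1 on the CPM scale, the ratio being 4.25 (exact 95% interval for counting error 2.81 to 6.63) and 4.45 (3.32 to 6.06). Both KO libraries lay below WT1, with KO2 at 16.8% of the WT mean for Tcstv3 and 19.4% for Usp17lc. Their log2 fold changes were -3.41 (SE 0.99) and -2.96 (SE 0.80), that of Tcstv3 ran from -6.05 without KO2 to -2.02 without WT2, and that of Usp17lc from -4.05 without KO2 to -1.52 without WT2.

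Eif1ad8, an autosomal copy related to the translation initiation factor Eif1a, had 166 reads in WT1 and 601 in WT2, against 7 in KO1 and 91 in KO2. The KO libraries kept 1.99% and 23.2% of the WT mean, and the log2 fold change was -2.97 (SE 0.91). It ran from -5.61 without KO2 to -1.91 without WT2. Eif1ad8 thus stood with Tcstv3 and Usp17lc in KO2, at 16.8 to 23.2% of the WT mean.

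Eif4a3l1 had 221 reads in WT1 and 1023 in WT2, against 2 in KO1 and 6 in KO2. Eif4a3l2 had 109, 379, 0 and 4. Unlike the other 8 genes, both were close to absent from both KO libraries, with KO2 at 0.949% and 1.60% of the WT mean. The 0 reads of Eif4a3l2 in KO1 allow up to 3 reads, or 0.193 CPM. Their log2 fold changes were -7.19 (SE 0.86) and -6.81 (SE 0.93), the lowest of the 10 genes. Without WT2 they were -5.86 and -5.80, and without KO2 -8.05 and -10.85, the last against 0 reads and so dependent on the fit's prior count. Summed, the pair had 330 and 1402 reads in WT and 2 and 10 in KO, a log2 ratio of means of -7.17. Eif4a3 itself, with coding identity of 96.2% and 96.8% to them, had 2541 and 3249 reads in WT and 3973 and 3971 in KO. Its log2 fold change was 0.46 (SE 0.18). Most read-length windows that Eif4a3l1 and Eif4a3l2 share with another gene lay in each other, 12.9 of 16.5% and 15.1 of 15.3% of all windows.

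Per length, in the authors' FPKM (counts scaled to gene length and library size), Eif4a3l1 was the highest of the 10 genes in WT, at 9.14 in WT1 and 36.9 in WT2. Eif1ad8 followed at 5.76 and 18.2, then Eif4a3l2 at 5.2 and 15.8. Those 3 genes overlapped in their ranges, so their order is not settled by 2 libraries. The other 7 genes had mean WT levels between 2.35 (Zscan4e) and 6.12 FPKM (Tcstv3). In KO2 the order was different, with Eif1ad8 first at 2.76 FPKM, Zscan4c second and Eif4a3l2 last at 0.167.

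In 10 of the 10 genes neither KO library reached the lower WT library, an order seen in 32.5% of all genes tested. The genes were selected on this contrast, so nothing is read from the count. The median log2 fold change was -2.77, from -7.19 to -1.83, and it was -5.06 without KO2, -1.94 without KO1 and -1.92 without WT2. All 10 passed the filter on low counts, which a gene can do through the WT libraries alone.

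The libraries of a group also differed from each other. In KO2 all 10 genes were higher than in KO1, by 2.69 times (Eif4a3l1) to 12.6 times (Tcstv3) on the CPM scale in the 9 genes with a read in KO1. For Eif4a3l1 the counting interval of that ratio, 0.482 to 27.3, includes equal levels. The interval of Eif4a3l2, with 0 reads in KO1, has a lower bound of 0.593 and includes them too. Across all genes tested, the ratio of KO2 to KO1 had a median of 1.00 and ran from 0.635 to 1.90 between the 5th and 95th percentiles. That range was taken with 0.1 CPM added to both libraries, which draws ratios of low genes towards equal levels. The ratios of the 10 genes have no such addition, so they are not on the same scale. In WT2, 9 of the 10 genes were higher than in WT1, and the ratio ran from 0.971 (Zscan4a) to 4.45 (Usp17lc). Over all genes it ran from 0.484 to 2.64 between the same percentiles, again with 0.1 CPM added. Zscan4a and Zscan4e were level between the WT libraries, with ratios of 0.971 (0.765 to 1.23) and 1.02 (0.724 to 1.45), while Zscan4c, Zscan4d and Zscan4f were higher in WT2, with ratios of 1.89 (1.47 to 2.44), 2.14 (1.70 to 2.71) and 2.45 (1.82 to 3.34).

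The same families held 4 genes known to be expressed broadly, Eif1a, Eif1ax, Eif1ad and Eif4a3, and 27 further copies, 25 of them with a read. In 18 of the 25 both KO values lay below both WT values, and in the other 7 the groups overlapped. Of the 18 copies that passed the filter on low counts, 16 had the first order, beside 32.5% of all genes tested. All 25 were higher in KO2 than in KO1, and 8 had 0 reads in KO1. The copies were taken because their relatives were known to differ, so their values too are given with no test. How far they can share reads with these relatives differed between families. Of Zscan4f's read-length windows, 69% also occurred in Zscan4-ps2, while 2.96% of those of Eif1ad8 and 0% of those of Tcstv3 occurred in another gene.

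Among the other Zscan4 rows, Zscan4-ps3 had 116 and 216 reads in WT and 4 and 65 in KO, and Zscan4-ps2 had 95 and 191 against 7 and 29. Zscan4b had 30 and 46 against 0 and 13, and Zscan4-ps1 had 40 and 32 against 1 and 20. All 4 lay below WT in both KO libraries, at log2 fold changes from -2.99 to -1.82. Zscan4-ps4, with 2, 3, 0 and 4 reads, was too low to compare.

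Of the Usp17-like genes, Usp17ld had 23 and 126 reads in WT and 1 and 8 in KO, Usp17lb 51 and 248 against 7 and 40, and Usp17la 53 and 181 against 9 and 54. Usp17le behaved differently in KO2, where its 178 reads put it between its 77 reads in WT1 and 281 in WT2, or 97.4% of the WT mean, although KO1 had 18. Tcstv1, the relative of Tcstv3, had 2 and 13 reads in WT and 4 and 30 in KO, so its groups overlapped and KO2 was its highest library.

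The Eif1ad copies lie with Eif1ad8 on chromosome 12. Eif1ad7 was the most abundant by count, with 237 and 496 reads in WT and 13 and 121 in KO. Eif1ad3 had 168 and 324 against 3 and 36, Eif1ad15 had 125 and 331 against 4 and 36, Eif1ad6 had 87 and 212 against 3 and 52, and Eif1ad10 had 76 and 222 against 1 and 12. Eif1ad14, Eif1ad4, Eif1ad17 and Eif1ad2 were at 101 reads or fewer in each WT library and likewise below WT in both KO libraries. Eif1ad10 kept 7.84% of the WT mean in KO2 and Eif1ad17 52.3%, the lowest and highest of these 9 copies. Among the copies with too few reads for the fit, Eif1ad12 and Eif1ad18 were below WT in KO. In Eif1ad11, Eif1ad13, Eif1ad16 and Eif1ad19 the groups overlapped. Eif1ad11, Eif1ad13 and Eif1ad19 had their highest count in KO2, at 13, 17 and 25 reads. The 16 copies summed to 796 and 1898 reads in WT against 34 and 358 in KO. Eif1a (log2 fold change 0.25, SE 0.20), Eif1ax (0.16, SE 0.19) and Eif1ad (-0.37, SE 0.18) stood between 74.7% (Eif1ad in KO1) and 131% (Eif1a in KO1) of their WT means.

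**Figure D4:**
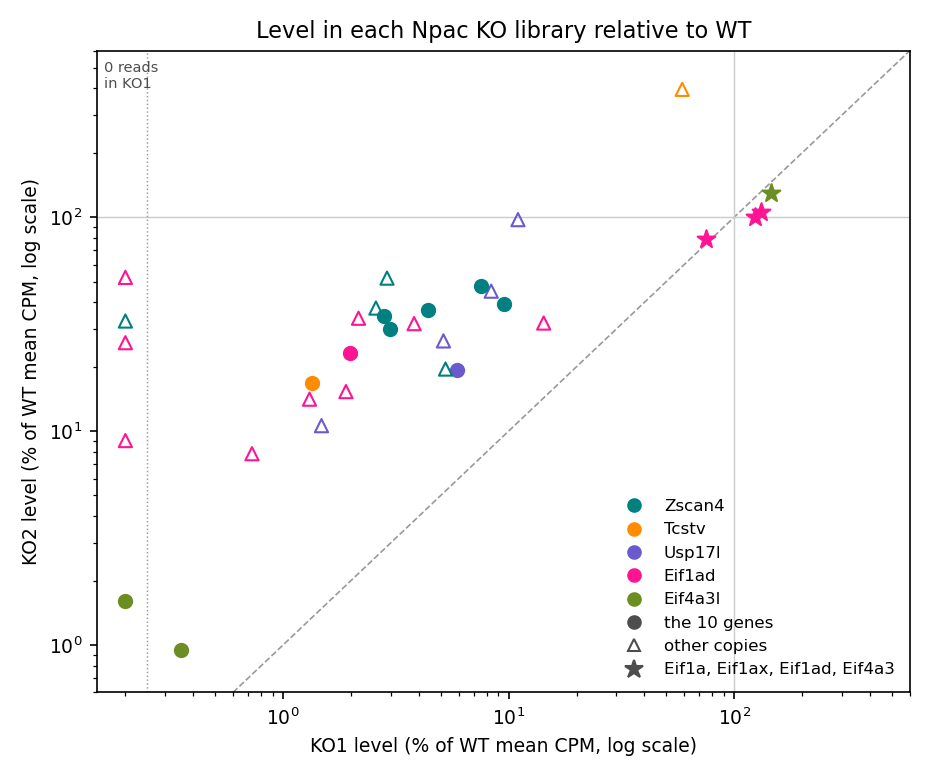
Each symbol is 1 gene of the 5 families that passed the filter on low counts, placed by its CPM in KO1 (x axis) and KO2 (y axis) as a percentage of its WT mean, both on log scales. Genes with 0 reads in KO1 stand left of the dotted line. The 10 genes and all other copies plotted lie above the dashed line of equal levels, while Eif1a, Eif1ax, Eif1ad and Eif4a3 sit near 100% in both.

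A list of 37 symbols known from the 2-cell-like state was examined, chosen with earlier results of these libraries known. Of these, 1 symbol was not matched and 7 belong to the families above, among them Gm8300, an older symbol of Eif1ad8. These were set aside and 29 genes remained, of which 5 had no read and 17 had enough reads for the test. In edgeR's fit 8 of the 17 were called lower in KO, beside 10.7% of all genes, and 0 were called higher (0 at an unadjusted p under 0.05 and 0 with DESeq2). The list's median log2 fold change was -3.32, or -3.30 with genes near 0 in KO set to a floor of 3 reads in each library, against 0.00 over all genes. The 17 include genes that could pass the filter through WT alone. The count was 13 without WT1 and 14 without KO2.

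Gm21761 was the most abundant of the 8, with 419 reads in WT1 and 1459 in WT2, against 2 in KO1 and 15 in KO2, and its log2 fold change was -6.74 (SE 0.77, edgeR adjusted p = 0.00221). Gm20767 had 170, 551, 5 and 52 reads (-3.66, SE 0.84, adjusted p = 0.0215). KO2 was higher than KO1 in both genes, and it stood at 1.56% of the WT mean for Gm21761 and at 14.1% for Gm20767.

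Zfp352, a zinc finger gene of the 2-cell embryo, had 28, 95, 4 and 8 reads (log2 fold change -3.30, adjusted p = 0.0178). Sp110, which encodes a nuclear body protein, had 36, 111, 2 and 7 (-3.97, adjusted p = 0.0119). AU015228 had 19, 108, 2 and 0, and Tdpoz3, of a cluster encoding proteins with TRAF and POZ domains, had 14, 28, 0 and 1. Tdpoz4 (20 and 79 reads in WT) and AF067063 (17 and 68) had 0 reads in both KO libraries. Set against 3 reads per library, they were at least 15.9-fold and at least 13.7-fold lower in KO. In all 8 genes WT2 was higher than WT1. The 8 are not all at separate loci. On chromosome 13, AF067063 starts at 120289497, Gm21761 at 120373631 and Gm20767 at 120601782, near Tcstv1 (120354924) and Tcstv3 (120778414). Tdpoz3 and Tdpoz4 lie near each other on chromosome 3. Of the 17 genes tested, 13 had both KO libraries below both WT libraries, an order seen in 32.5% of all genes tested. In Tmem92, Arg2, Ubtfl1 and Ddit4l, named outside the rule after their values were seen, the groups overlapped. KO2 stood at 87.5% of the WT mean for Tmem92 and at 105% for Arg2. Ddit4l had 90, 361, 221 and 309 reads (log2 fold change 0.27, SE 0.51).

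Genes known to activate the state were examined next. Of the 5 activators tested, 0 were called lower (0 at an unadjusted p under 0.05 and 0 with DESeq2) and Trp53 was called higher, beside 10.7% of all genes called lower and 11% called higher. The list's median log2 fold change was 0.27. Trp53, which encodes p53, an activator of Dux, had 3916 and 3489 reads in WT and 7797 and 6111 in KO (log2 fold change 0.91, SE 0.24, edgeR adjusted p = 0.0322). That call was lost without KO1, and 1 activator was called lower without WT1. Dppa4, which with Dppa2 primes Dux for transcription, had 1914 and 2307 reads against 2462 and 2630 (0.27, SE 0.17, adjusted p = 0.284), and Nelfa had 1183 and 1954 against 1090 and 1386 (-0.33, SE 0.22, adjusted p = 0.312). Duxf3, the row of Dux in the table, falls outside the rule for named genes and was chosen after its values were seen. With 7 and 9 reads in WT and 1 and 6 in KO it was too low for the test, and at this depth no difference could be assessed.

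Of 32 repressors of the state, all tested, 4 were called lower in KO and 2 higher, with a median log2 fold change of 0.14. Over all genes tested 10.7% were called lower and 11% higher, so the share of repressors called lower was close to that background and the share called higher was below it. Zfp42 (Rex1), which is also an mESC marker, had 14426 and 12181 reads in WT and 2084 and 2234 in KO (-2.64, SE 0.22, edgeR adjusted p = 0.000704). Tet2, an enzyme that oxidizes methylated DNA, had 5151 and 2993 against 1423 and 1516 (-1.51, SE 0.31, adjusted p = 0.0144). E2f6 (-0.76, adjusted p = 0.0375) and Rnf2 (-0.59, adjusted p = 0.0495), both of a variant Polycomb complex, were the other 2 called lower. Hdac1, a histone deacetylase, had 2657 and 2882 reads against 7726 and 7360 (1.44, SE 0.19, adjusted p = 0.00337), and the H3K9 methyltransferase gene Ehmt2 was called higher as well (0.70, SE 0.18, adjusted p = 0.0324). The lower count was 8 without WT2 and 2 without either KO library, and the higher count was 7 without WT1 and 1 without KO1.

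Since Zscan4 is known for telomere maintenance, 9 genes of telomerase, of the telomere-bound shelterin complex and of telomere replication were listed as well. In edgeR's fit 0 of the 9 were called lower (0 at an unadjusted p under 0.05 and 0 with DESeq2) and Tert, the catalytic subunit of telomerase, was called higher, where 11% of all genes tested were called higher. Tert had 385 and 327 reads in WT and 876 and 838 in KO (log2 fold change 1.25, SE 0.23, adjusted p = 0.0100). Rtel1, a helicase (-0.44, SE 0.23, adjusted p = 0.198), and Tinf2, of shelterin (-0.32, SE 0.18, adjusted p = 0.225), did not pass. The higher count was 2 without WT1, 2 without WT2 and 0 without KO1, and 1 gene was called lower without WT2.

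**Figure D5:**
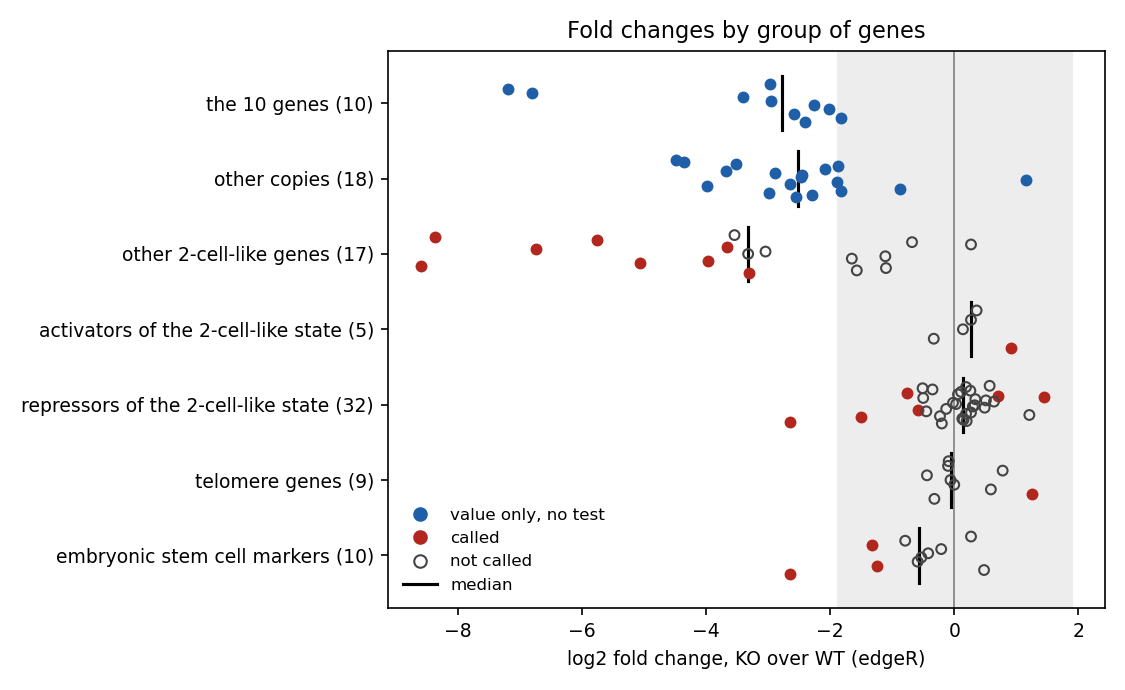
Points are edgeR log2 fold changes, KO over WT (x axis), of the genes in each group that passed the filter, with the group's size in parentheses and a bar at its median. Red points were called, open points were not, and blue points are given as values only. The grey band spans the 5th to 95th percentiles of all 18157 genes, -1.87 to 1.90. The positions of Tdpoz4 and AF067063, with 0 reads in KO, depend on the fit's prior count. Medians are -2.77 for the 10 genes and -3.32 for the other 2-cell-like genes, and between -0.56 and 0.27 for the 4 groups below them.

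Genes outside the families were ranked by how closely their profile over the 4 libraries followed the summed Zscan4 counts, as the root mean square difference of centred log2 CPM over 15721 genes with a mean count of at least 20. The closest was Gm16478, a processed pseudogene (difference 0.11), with 67 reads in WT1 and 136 in WT2, against 3 in KO1 and 40 in KO2. Next came Gm2245, a long noncoding RNA gene (0.15), with 26, 49, 0 and 11, and Gm5512, a transcribed pseudogene (0.23), with 25, 40, 1 and 14. Adtrp (0.27) had 41, 92, 3 and 19 reads, and AA623943 (0.28) had 37, 83, 3 and 30. All 5 share with Zscan4 the order WT2, WT1, KO2, KO1, and with 4 libraries many genes can take that order.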

How the data were processed

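RNA from E14 cells (2 WT and 2 Npac KO libraries) was sequenced as paired 150-base reads. Per the labels' processing notes, the authors mapped reads with HISAT2 2.0.5 to mm10 and counted them with featureCounts 1.5.0-p3, although the study's methods name another HISAT version. Strand setting and multiple matches are not given in the sources used here. The deposited counts are raw reads per gene, and the deposited FPKM values were scaled by the authors to gene length and library size. Neither table holds the authors' own comparisons.

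Groups came from the genotype labels. The 10 genes and all gene lists were chosen with earlier results of these data known. Counts were tested with edgeR 4.0.16 in R 4.3.3 (filterByExpr, TMM, quasi-likelihood, genotype alone, Benjamini-Hochberg adjustment over 18157 genes, common biological coefficient of variation 0.235), which was first tested on simulated data. CPM used TMM-effective library sizes. The fit gives no standard error (SE), so SE is the absolute log2 fold change divided by the square root of the test's F statistic. For the 10 genes it only describes the spread. The rule for named genes took the 10 genes, every family row with a read, the called genes of each list (topped up to 3 by mean count; marker lists were summarised) and the 5 closest profiles. Identity came from global alignment with Biopython 1.88 of GENCODE M21 coding sequences. Alternatives were DESeq2 1.42.0, its size factors, no count filter, a replicate block, limma 3.58.1 on log2(FPKM + 1) and log2(FPKM + 0.1), other sums of Zscan4 and leaving out each library. Totals of 15850805 to 16965120 reads make a floor of 3 reads worth 0.172 to 0.196 CPM.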

Additional observations from a re-analysis of the deposited data

How the results depend on the processing

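Of the results that answer a comparison, 82 values under the alternatives stayed close to the reported one, 30 moved and 0 reversed. DESeq2, its size factors and log2(FPKM + 0.1) moved none. Without the count filter 13 other 2-cell-like genes were called lower and 4 repressors higher, and with log2(FPKM + 1) 2 repressors were called lower. With the replicate number as a block, 2994 genes were called lower and 3128 higher in KO (1946 and 1999 without it), with 13 other 2-cell-like genes lower, 4 repressors higher and 2 telomere genes higher. The deviations of same-numbered libraries correlated at 0.332 over 18157 genes, with only 2 pairs, so the numbers were not taken to pair the libraries. Single genes of the 10 gave 40 values close to the reported one, 10 that moved and 0 that reversed. Where a group was left with 1 library, that library is assumed to vary like those of the other group. Leaving out each library in turn gave 821 to 3384 genes called lower and 826 to 3571 higher. For the other 2-cell-like genes it gave 7 to 14 lower and 0 to 1 higher. For activators it gave 0 to 1 lower and 0 to 1 higher, for repressors 2 to 8 lower and 1 to 7 higher, and for telomere genes 0 to 1 lower and 0 to 2 higher. The log2 ratio of summed Zscan4 ran from -4.26 to -1.46 and the median over the 10 genes from -5.06 to -1.92, the lowest in both without KO2. Why the counts moved was not tested. With 2 libraries a group, and from 0 to 13 reads per gene in KO1, depth limits how well the size of each difference is known.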
